A study of Mus musculus with 12 samples.

Results

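The 10 genes described here encode the 5 NF-kB subunits (Nfkb1, Nfkb2, Rela, Relb and Rel) and 5 inhibitors of the pathway (Nfkbia, Nfkbie, Nfkbid, Nfkbiz and Tnfaip3). They were taken by name from the 31060 genes of a table of RNA-seq read counts, and all 10 passed the filter on low counts that left 15630 genes for testing. The RNA came from lineage-negative mouse bone marrow, the fraction left after cells bearing markers of mature blood lineages are removed. All mice carried the C57BL/6 strain label, and no age was given. The groups were Tet2+/-;Ins2Akita/+ mice, called the double mutant below (3 libraries), Tet2+/- mice, which carry 1 inactive copy of the DNA demethylase gene Tet2 (3 libraries), Ins2Akita/+ mice, whose misfolding insulin makes them diabetic (2 libraries), and WT mice (3 libraries). The labels name no Cre, no promoter and no source of either allele. The title of the series places the comparison in hyperglycaemic stress and Tet2 haploinsufficiency.

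NF-kB is a family of dimeric transcription factors held inactive in the cytoplasm by IkB proteins. Signals from receptors for TNF, interleukin-1 and bacterial products activate the IkB kinase, IkB is degraded, and the dimers enter the nucleus. Among the first genes they induce are the genes of their own inhibitors, so the level of an inhibitor transcript is often read as a record of recent signalling. In marrow the pathway takes part in emergency myelopoiesis and in the response of neutrophils and monocytes to infection.

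The libraries held 14814409 to 22600405 counts. The progenitor gene Kit was present in every library at 76.1 to 132 CPM (counts scaled to library size with edgeR's TMM factors). The libraries numbered 3 stood apart from the others: 4.46% to 9.76% of the counts of the double mutant and Tet2+/- libraries numbered 3 and 3.43% of the WT library numbered 3 came from mitochondrial genes, against 1.36% to 1.94% in the other 8. No labelled Ins2Akita/+ sample is numbered 3. Tet2 itself was at 66.5, 108 and 34.2 CPM in the double mutant, 19.0, 18.5 and 19.3 CPM in Tet2+/-, 131 and 107 CPM in Ins2Akita/+, and 91.2, 128 and 45.1 CPM in WT. The double mutant libraries were thus not as low in Tet2 as the libraries labelled Tet2+/-, and every direction below is between libraries that carry these labels.

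All 10 are protein-coding genes, placed here by the GENCODE annotation of GRCm38. The subunit genes are Nfkb1 on chr3:135584655-135691547 (minus strand), Nfkb2 on chr19:46304320-46312385 (plus strand), Rela on chr19:5637483-5648130 (plus strand), Relb on chr7:19606217-19629438 (minus strand) and Rel on chr11:23736847-23770970 (minus strand). The inhibitor genes are Nfkbia on chr12:55489410-55492647 (minus strand), Nfkbie on chr17:45555703-45563169 (plus strand), Nfkbid on chr7:30421732-30428746 (plus strand), Nfkbiz on chr16:55811375-55838899 (minus strand) and Tnfaip3 on chr10:19000910-19015657 (minus strand).

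Promoter windows of 7 of the 10 genes were matched in the RefSeq table for build GRCm38.p6, 12 windows in all, each running from 250 bases before a transcription start to 50 after it. The genes Nfkbiz, Nfkb1 and Relb were not matched. The kappaB site is the DNA element that NF-kB dimers bind. Of the windows that held a match to it, 5 are shown to let a reader see where it lies. Capitals mark matches to the strict motif (GGG, then any 2 bases, then TTTCC) or to the kappaB consensus on either strand, and overlapping matches are written as 1 run of capitals. All are written 5′ to 3′ along the strand of the gene.
Nfkb2, chr19:46304487-46304786, plus strand: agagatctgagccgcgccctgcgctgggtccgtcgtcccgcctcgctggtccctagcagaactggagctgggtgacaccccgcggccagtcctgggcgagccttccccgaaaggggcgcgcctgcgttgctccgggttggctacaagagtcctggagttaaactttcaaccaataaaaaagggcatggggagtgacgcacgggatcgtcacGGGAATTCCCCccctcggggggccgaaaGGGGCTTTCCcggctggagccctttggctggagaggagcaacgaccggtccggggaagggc
Nfkbia, chr12:55492598-55492897, minus strand: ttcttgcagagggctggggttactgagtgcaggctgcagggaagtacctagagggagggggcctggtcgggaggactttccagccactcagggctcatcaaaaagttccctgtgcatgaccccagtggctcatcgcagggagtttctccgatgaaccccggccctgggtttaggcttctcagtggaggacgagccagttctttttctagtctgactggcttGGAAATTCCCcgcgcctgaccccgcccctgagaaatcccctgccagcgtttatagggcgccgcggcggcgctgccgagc
Nfkbie, chr17:45555450-45555749, plus strand: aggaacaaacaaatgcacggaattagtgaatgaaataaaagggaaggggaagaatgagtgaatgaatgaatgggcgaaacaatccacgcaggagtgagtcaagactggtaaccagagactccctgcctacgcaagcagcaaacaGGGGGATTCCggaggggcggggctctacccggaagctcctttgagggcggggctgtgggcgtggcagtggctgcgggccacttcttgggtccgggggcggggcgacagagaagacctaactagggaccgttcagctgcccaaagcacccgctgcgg
Rel, chr11:23770920-23771219, minus strand: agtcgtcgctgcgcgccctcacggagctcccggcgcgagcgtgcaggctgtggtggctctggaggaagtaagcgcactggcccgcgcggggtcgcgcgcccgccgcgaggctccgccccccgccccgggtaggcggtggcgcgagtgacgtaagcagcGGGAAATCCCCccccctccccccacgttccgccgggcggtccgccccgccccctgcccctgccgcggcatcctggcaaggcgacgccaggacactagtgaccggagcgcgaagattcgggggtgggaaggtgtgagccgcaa
Tnfaip3, chr10:19015361-19015660, minus strand: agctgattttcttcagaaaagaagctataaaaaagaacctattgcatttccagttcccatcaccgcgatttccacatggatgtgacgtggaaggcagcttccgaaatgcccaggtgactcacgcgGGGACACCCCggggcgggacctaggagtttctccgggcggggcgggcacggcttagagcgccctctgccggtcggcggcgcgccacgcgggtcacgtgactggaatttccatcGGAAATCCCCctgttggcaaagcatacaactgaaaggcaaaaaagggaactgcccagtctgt

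The strict motif stood in 6 of the 12 windows, belonging to 4 genes (Nfkb2, Nfkbia, Rel and Tnfaip3), against 535 of all 32817 windows in the table (1.63%). The consensus stood in 8 of the 12 windows, belonging to 6 genes, against 1478 of all windows (4.50%). The window of Rela held neither, and nor did some windows of Nfkbid and Tnfaip3. Every strict match in these 12 windows is also a consensus match, and 2 of the Nfkb2 windows overlap and share a match. The strict match lay 29 to 20 bases before the start in Nfkbia, 12 to 3 bases before it in Tnfaip3, 91 to 82 bases before it in Rel and 11 to 2 bases before it in the Nfkb2 window shown. In Nfkbie the match was to the consensus only, 106 to 97 bases before the start. These are matches of letters and say nothing on binding.

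Nfkbiz was the 1 member called in any comparison, and it was higher in the double mutant than in every other group. It encodes IkB-zeta, an atypical nuclear IkB that is induced by Toll-like receptor and interleukin-1 signals and co-activates secondary response genes. The gene (ENSMUSG00000035356.16) was at 499, 654 and 542 CPM in the double mutant, against 281, 227 and 209 CPM in Tet2+/-, 255 and 245 CPM in Ins2Akita/+, and 262, 265 and 258 CPM in WT. All 3 double mutant libraries were above all 8 others, which lay close together. The lowest double mutant library was 1.77-fold above the highest of the others. Of all genes tested, 5.04% had the 3 double mutant libraries above all others, and 0.928% had them at least 1.5-fold above. No other member had its double mutant libraries above the 8 others.

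By edgeR's quasi-likelihood test with Benjamini-Hochberg adjustment over all 15630 genes, Nfkbiz rose in the double mutant against Tet2+/-, by 1.24 on the log2 scale (SE 0.19, adjusted p = 0.0384). In that comparison 41 genes were called, 0.262% of those tested, and 1 of the 10 members was among them. The count of 41 was 66 without Tet2+/- number 3, 49 without WT number 3 and 0 to 8 without any other library. Against WT the difference was 1.11 (SE 0.19), with an adjusted p of 0.0779 by the same test, and 0.0448% of genes were called. Against Ins2Akita/+ it was 1.18 (SE 0.21), with an adjusted p of 0.173, and 0.0384% of genes were called. These 3 comparisons share the double mutant libraries. The counts come from mixed cells, so more cells of a type and more RNA per cell cannot be told apart.

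With either allele alone, the difference of Nfkbiz from WT was smaller than its standard error. Nfkbiz averaged 239 ± 37.7 CPM in Tet2+/- and 261 ± 3.35 CPM in WT (SD, n = 3 each), a log2 difference of -0.13 (SE 0.18, adjusted p = 0.9999 by edgeR). It averaged 250 ± 6.95 CPM in Ins2Akita/+ (SD, n = 2), a log2 difference of -0.07 from WT (SE 0.21, adjusted p = 1 by edgeR). The interaction, the effect of Ins2Akita on Tet2+/- minus its effect on WT, was 1.31 on the log2 scale for Nfkbiz (SE 0.28). The unadjusted p was 8.95e-04 and the adjusted p of edgeR's quasi-likelihood test over all genes was 0.538, so it was not called. No gene was called in the interaction by that test, while 3.44% had an unadjusted p under 0.05.

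The values within a library number pointed the same way. Nfkbiz was higher in the double mutant than in WT by 0.93, 1.31 and 1.07 on the log2 scale at numbers 1, 2 and 3. It was higher than in Tet2+/- by 0.83, 1.53 and 1.38, and higher than in Ins2Akita/+ by 0.97 and 1.42 at numbers 1 and 2. Without the libraries numbered 3, Nfkbiz was called against all 3 other groups by edgeR's test: 1.13 against WT with an adjusted p of 0.0188, 1.18 against Tet2+/- with an adjusted p of 0.00838, and 1.21 against Ins2Akita/+ with an adjusted p of 0.0174. That fit called 3.44%, 7.71% and 2.89% of 15092 genes in those comparisons, and left the interaction of Nfkbiz at 1.26 with an adjusted p of 0.0800, with 0.0464% of genes called. With the library number as a block, the adjusted p by edgeR was 0.0242 against WT, where 1.63% of genes were called, and 0.0113 against Tet2+/-, where 4.5% were. It was 0.0673 against Ins2Akita/+, where 0.115% of genes were called.
The call against Tet2+/- did not hold when any 1 library but WT number 3 was left out. The adjusted p was then 0.0544 to 0.175, and 0.0445 without WT number 3. The call against WT was made without Tet2+/- number 3, with an adjusted p of 0.0488. DESeq2 called Nfkbiz in all 3 comparisons and in the interaction, with adjusted p of 3.20e-07 against WT, 5.15e-09 against Tet2+/-, 3.08e-06 against Ins2Akita/+ and 9.50e-04 for the interaction, where it called 2.61%, 3.44%, 1.21% and 0.384% of genes.

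**Figure D1:**
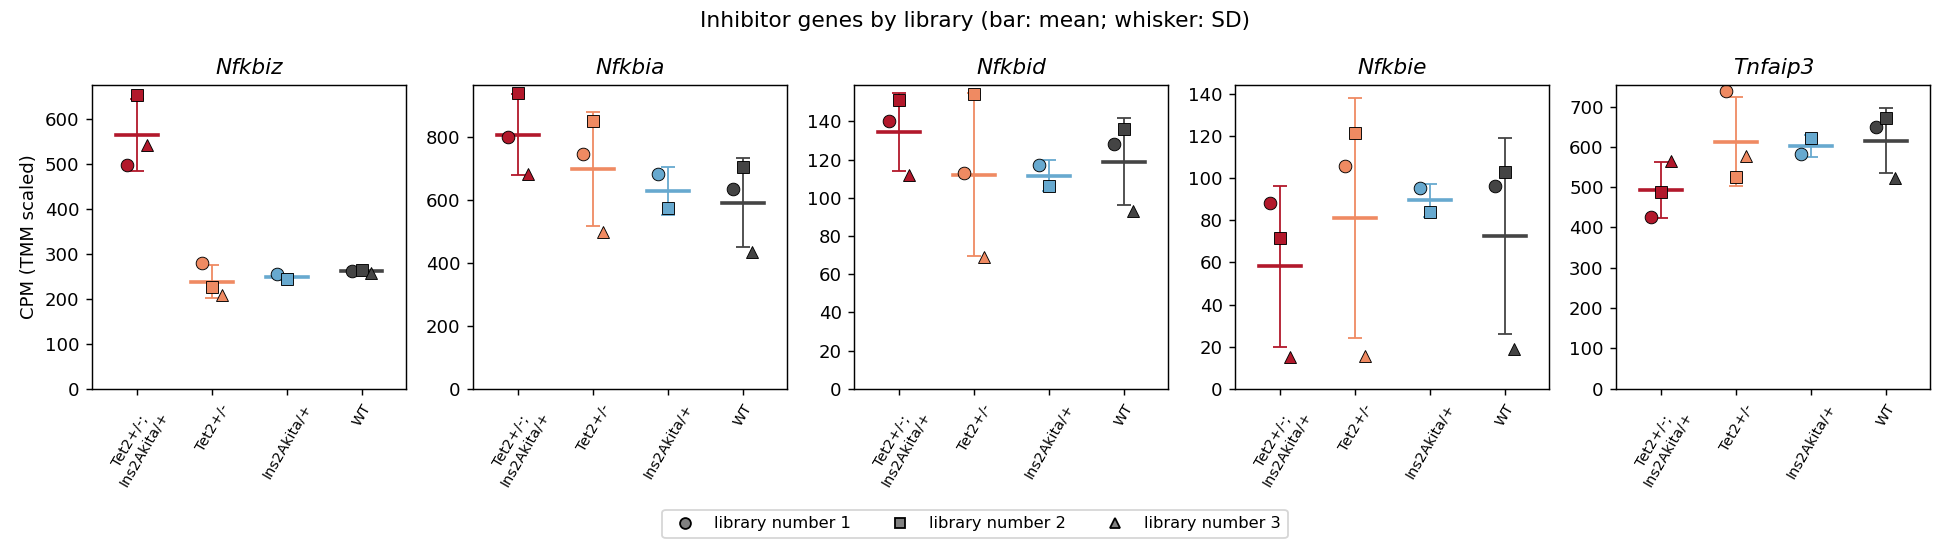
CPM of the 5 inhibitor genes in each library, with the mean as a bar and the SD as a whisker, for the double mutant, Tet2+/-, Ins2Akita/+ and WT groups. The 3 double mutant libraries of Nfkbiz, at 499, 654 and 542 CPM, sit above all others, and Nfkbie is low in every library numbered 3.

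Marker transcripts of maturing neutrophils were, as a sum, higher in the double mutant than in every other group, as was Nfkbiz. The summed level of 14 such markers (S100a8, S100a9, Ngp, Camp, Ltf, Lcn2 and others) was 47190 to 72850 CPM in the double mutant, 3096 to 28730 CPM in Tet2+/-, 16240 to 31430 CPM in Ins2Akita/+ and 2237 to 24010 CPM in WT, and none of the 14 was at 0 in any library. In the double mutant libraries Nfkbiz was at 499, 542 and 654 CPM where the sum was 47190, 63070 and 72850 CPM. In Tet2+/- it was at 209, 281 and 227 CPM where the sum was 3096, 26970 and 28730 CPM, and in Ins2Akita/+ at 245 and 255 CPM where it was 16240 and 31430 CPM. In WT it was at 258, 262 and 265 CPM where the sum was 2237, 22930 and 24010 CPM. Within the double mutant and Ins2Akita/+ a higher sum went with a higher Nfkbiz, an order that rests on few libraries. In Tet2+/- the lowest sum went with the lowest Nfkbiz, but the highest sum did not go with the highest Nfkbiz. In WT Nfkbiz hardly varied, while the sum ran from 2237 to 24010 CPM. B lineage markers (14 genes) summed to 74.0 to 147 CPM in the double mutant against 239 to 266 CPM in WT, with Rag2 at 0 in 1 double mutant library. Dendritic cell markers (13 genes) summed to 290.5 to 362.5 CPM in the double mutant against 619 to 846 CPM in WT. Whether these cell types had a part in the Nfkbiz difference was not tested.

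**Figure D2:**
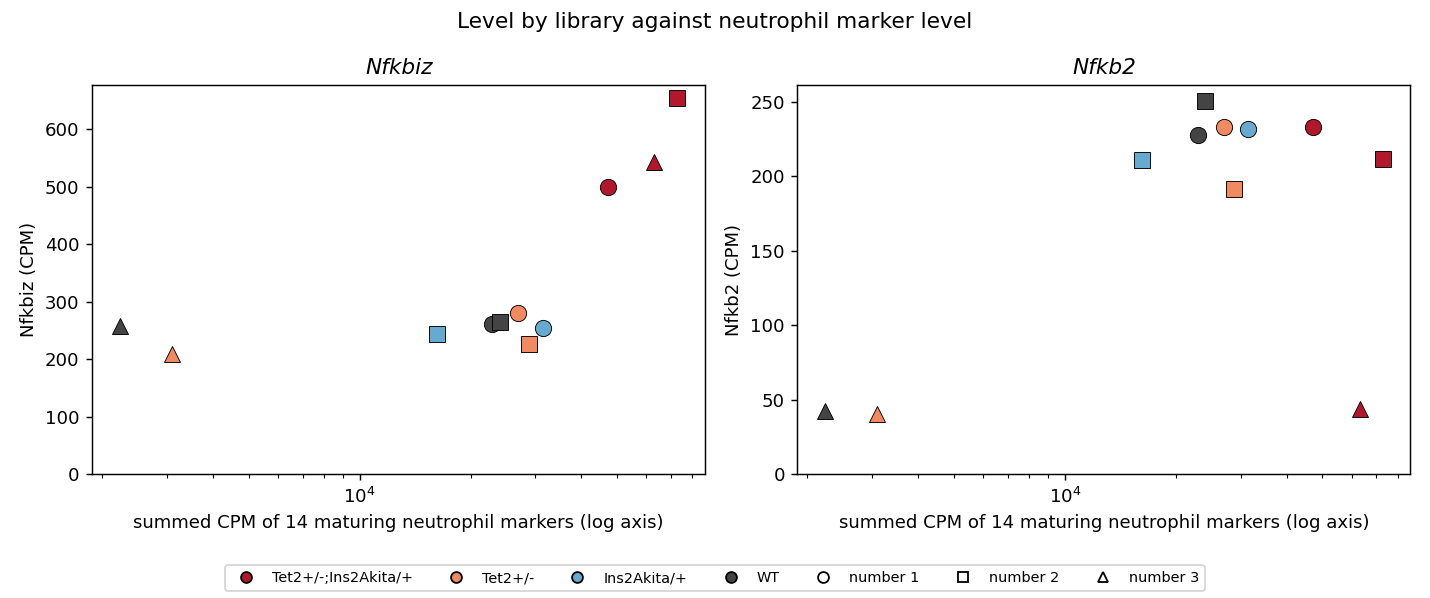
Nfkbiz in each library (vertical axis, CPM) against the summed CPM of 14 maturing neutrophil markers (horizontal axis, log scale), with the group by colour. The double mutant libraries lie at 499 CPM or more of Nfkbiz and 47190 CPM or more of the markers, with Nfkbiz higher where the markers are higher. The Tet2+/- libraries lie at 209 to 281 CPM of Nfkbiz over 3096 to 28730 CPM of the markers, the Ins2Akita/+ libraries at 245 to 255 CPM over 16240 to 31430 CPM, and the WT libraries at 258 to 265 CPM over 2237 to 24010 CPM.

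None of the other 4 inhibitors was called between genotypes. Nfkbia encodes IkB-alpha, the inhibitor that is degraded and resynthesised within a signalling cycle. It was at 800, 940 and 682 CPM in the double mutant, 744, 850 and 498 CPM in Tet2+/-, 682 and 574 CPM in Ins2Akita/+, and 635, 706 and 434 CPM in WT. The groups overlapped, with the library numbered 3 the lowest of each group that has one. The log2 difference between double mutant and WT was 0.45 (SE 0.26, adjusted p = 0.742 by edgeR), and without the libraries numbered 3 it was 0.38 (adjusted p = 0.246 by edgeR).

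Nfkbid and Nfkbie encode IkB-NS, a nuclear IkB, and IkB-epsilon, a cytoplasmic one. Nfkbid was at 140, 151 and 112 CPM in the double mutant, 113, 154 and 69.0 CPM in Tet2+/-, 117 and 106 CPM in Ins2Akita/+, and 128, 136 and 93.0 CPM in WT. Its groups overlapped, and the log2 difference between double mutant and WT was 0.18 (SE 0.29). Nfkbie was at 88.1, 71.5 and 15.2 CPM in the double mutant, 106, 121.5 and 15.8 CPM in Tet2+/-, 95.2 and 83.9 CPM in Ins2Akita/+, and 96.3, 103 and 18.8 CPM in WT. The groups overlapped, and the spread within a group came from the libraries numbered 3. The log2 difference for Nfkbie between double mutant and WT was -0.32 (SE 0.84), with an adjusted p of 0.959 by edgeR.

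Tnfaip3 encodes A20, a ubiquitin-editing enzyme that ends signalling to the IkB kinase. It was at 426, 488 and 565 CPM in the double mutant, 738, 525 and 577 CPM in Tet2+/-, 583 and 622 CPM in Ins2Akita/+, and 649, 672.5 and 522 CPM in WT. The double mutant libraries were all below the Ins2Akita/+ libraries and overlapped the other 2 groups. Of all genes tested, 19.9% had the double mutant libraries all below the Ins2Akita/+ libraries, and among the members Nfkb1 and Relb did too. The log2 difference between double mutant and WT was -0.32 (SE 0.21, adjusted p = 0.772 by edgeR). Without the libraries numbered 3 it was -0.53 (SE 0.18), with an adjusted p of 0.148 by edgeR.

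**Figure D3:**
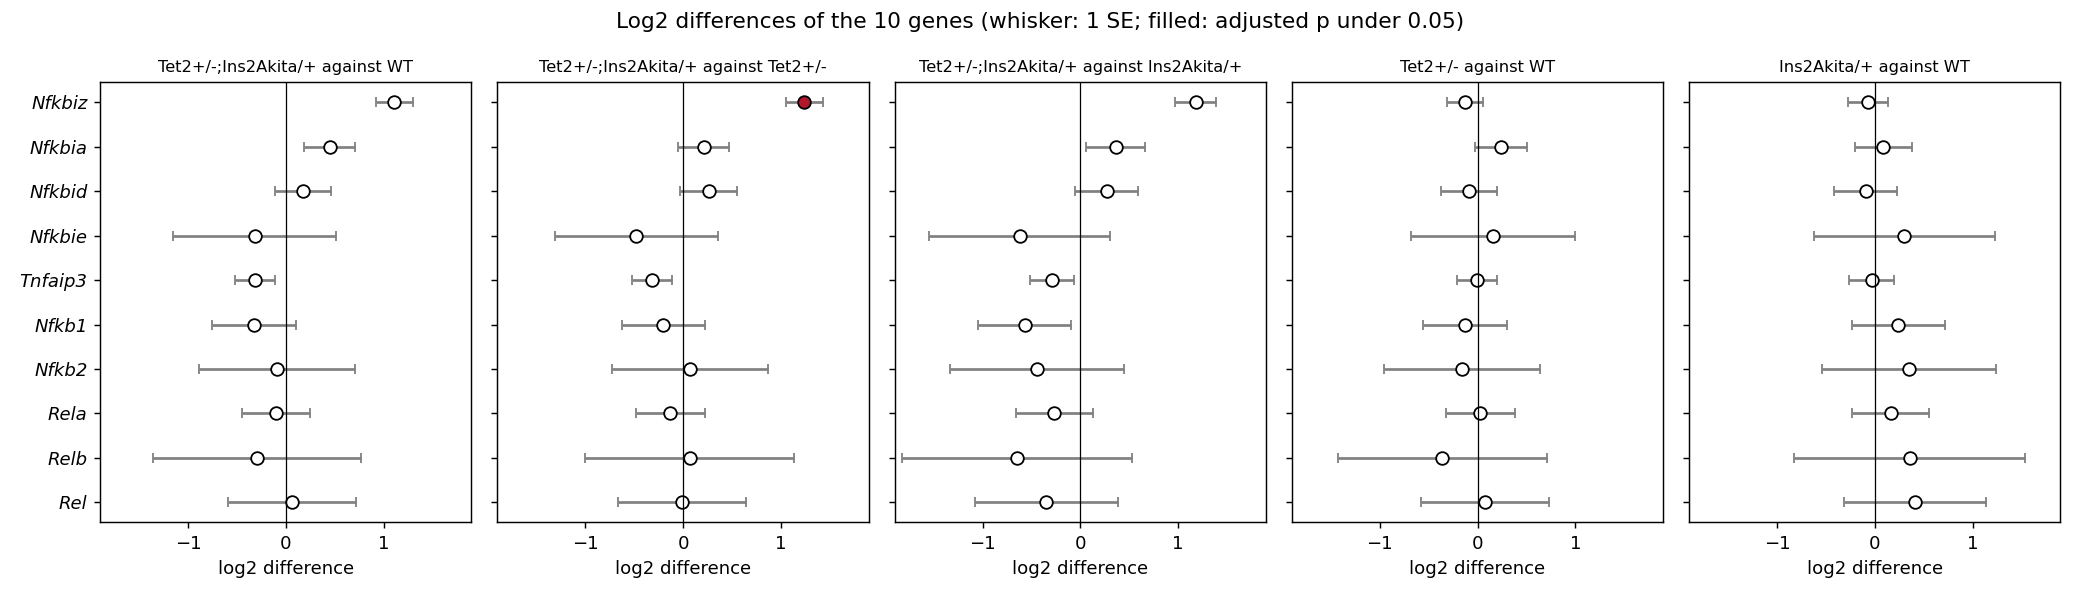
Log2 differences of the 10 genes in the comparisons of the 4 groups, with standard errors derived from edgeR's test. Nfkbiz lies at 1.11 to 1.24 in the comparisons of the double mutant with the other 3 groups, and the standard errors of Relb, Nfkbie and Nfkb2 reach from 0.80 to 1.18.

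None of the 5 subunit genes was called between genotypes. Nfkb1 encodes p105, the precursor of p50, and Nfkb2 encodes p100, the precursor of p52. Nfkb1 was at 297, 256 and 161 CPM in the double mutant, 375, 312 and 133 CPM in Tet2+/-, 371 and 334 CPM in Ins2Akita/+, and 334, 399 and 162 CPM in WT. The groups overlapped, except that the double mutant libraries all lay below Ins2Akita/+. The log2 difference of Nfkb1 between double mutant and WT was -0.33 (SE 0.43, adjusted p = 0.910 by edgeR), and without the libraries numbered 3 it was -0.41 (SE 0.16, adjusted p = 0.205 by edgeR).
Nfkb2 was at 233, 212 and 44.0 CPM in the double mutant, 233, 192 and 40.5 CPM in Tet2+/-, 232 and 211 CPM in Ins2Akita/+, and 228, 251 and 42.2 CPM in WT. Its groups overlapped and the numbers 1 and 2 lay close together. The log2 difference between double mutant and WT was -0.09 (SE 0.80). Nfkb2 overlaps Psd and AC114539.1 on the other strand, and Nfkb1 overlaps Gm43430 on its own strand. Whether the counts use strand is not given in the sources used here, so these 2 genes' counts are uncertain.

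Rela encodes p65, the subunit that carries the transactivation domain of the most studied dimer. It was at 235, 199 and 114 CPM in the double mutant, 236, 229 and 135 CPM in Tet2+/-, 221 and 217.5 CPM in Ins2Akita/+, and 233, 235 and 120 CPM in WT. Apart from the libraries numbered 3, all lay between 199 and 236 CPM. The log2 difference between double mutant and WT was -0.10 (SE 0.35).
Relb, the partner of p52 in the noncanonical arm, was at 86.4, 89.7 and 8.37 CPM in the double mutant, 76.9, 92.2 and 7.10 CPM in Tet2+/-, 97.5 and 95.3 CPM in Ins2Akita/+, and 117.5, 98.8 and 9.74 CPM in WT. Its double mutant libraries lay below both Ins2Akita/+ libraries and overlapped Tet2+/- and WT. Rel, which encodes c-Rel of lymphoid and myeloid cells, was at 343, 396 and 152 CPM in the double mutant, 477.5, 340 and 80.8 CPM in Tet2+/-, 406 and 349 CPM in Ins2Akita/+, and 338, 414 and 99.99 CPM in WT. Its groups overlapped. The log2 differences between double mutant and WT were -0.29 (SE 1.07) for Relb and 0.06 (SE 0.66) for Rel.

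No member was called by edgeR in Tet2+/- against WT, where 0.0256% of genes were called, or in Ins2Akita/+ against WT, where none was. No member had an unadjusted p under 0.05 in either, against 2.12% and 0.429% of genes, and DESeq2 called none, against 0.288% and 0% of genes. Without the libraries numbered 3, edgeR called no member in either comparison, against 0.146% and 0% of genes.

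**Figure D4:**
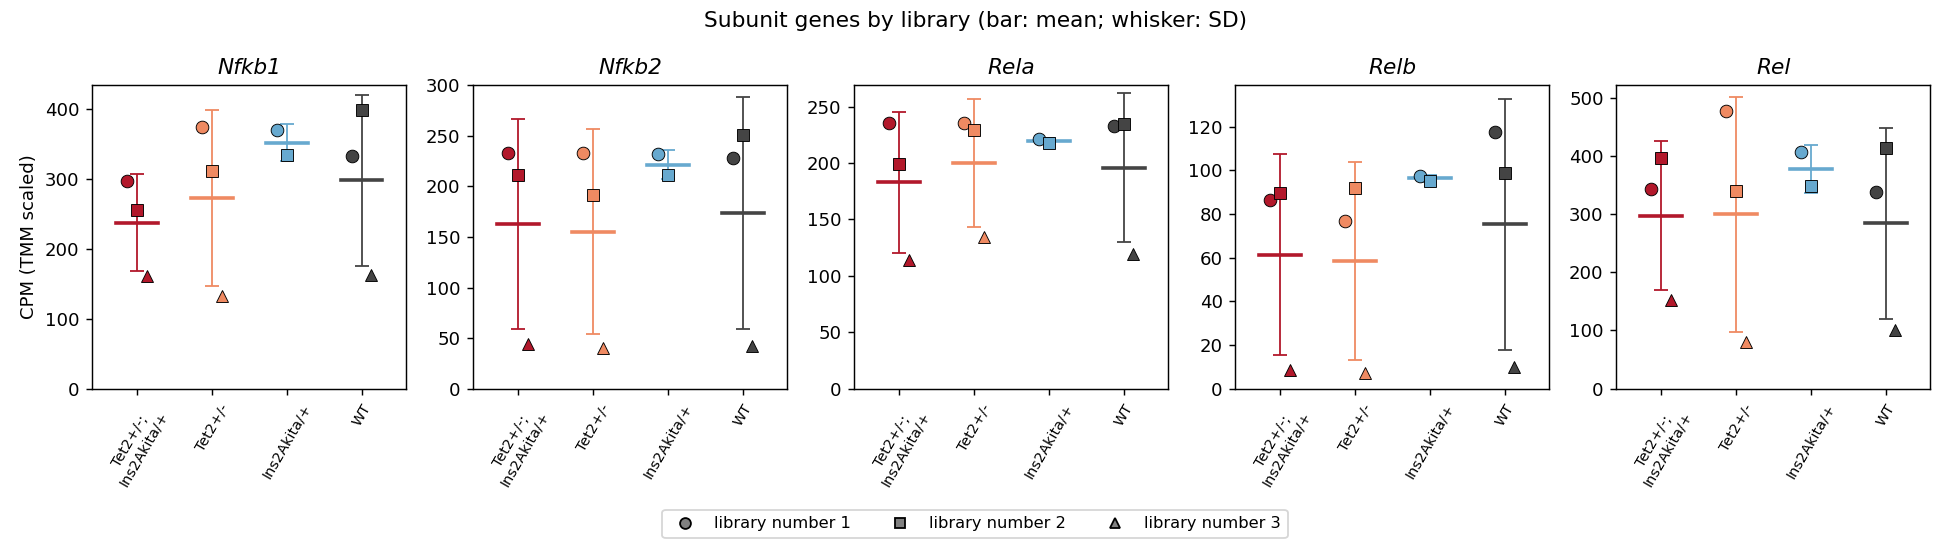
CPM of the 5 subunit genes in each library, with the mean as a bar and the SD as a whisker, for the double mutant, Tet2+/-, Ins2Akita/+ and WT groups. The libraries numbered 3 (triangles) are the lowest of each panel, at 7.10 to 9.74 CPM for Relb against 76.9 to 117.5 CPM in the other libraries.

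The largest differences in these 10 genes followed the library number, not the genotype, and they were described without a test. Relb was 10.4-fold lower in the double mutant library numbered 3 than in the mean of numbers 1 and 2, 11.7-fold lower in Tet2+/- and 10.9-fold lower in WT. Nfkbie was 5.19-, 7.17- and 5.27-fold lower in those groups, and Nfkb2 was 5.04-, 5.21- and 5.65-fold lower. Rel was 2.42-, 4.98- and 3.74-fold lower.
These 3 genes, Relb, Nfkbie and Nfkb2, were at least 4-fold lower in all 3 groups, as were 165 of all genes tested (1.06%). With Rel, 4 of the 10 were at least 2-fold lower in all 3 groups, against 6.52% of genes. The 5 subunits and Nfkbie, 6 of the 10, had their libraries numbered 3 below every other library, against 15.9% of genes. Nfkbiz and Tnfaip3 did not follow this: their mean log2 differences were -0.13 and -0.05, near the 0.03 median of all genes.

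The mix of subunits differed too. Per kilobase of exon, Rela made up 44.9%, 57.5% and 50.3% of the summed level of the 5 subunits in the double mutant, Tet2+/- and WT libraries numbered 3, against 30.9% to 35.3% in the 8 libraries numbered 1 and 2. Relb made up 2.61%, 2.40% and 3.23% in those 3, against 8.16% to 13.2% in the 8. Of 93 pathway genes tested, 7 were at least 4-fold lower there in all 3 groups (Cd83, Icam1, Malt1, Tnfrsf1b, Tnip1, Traf1 and Zc3h12a), against 165 of all 15630 genes (1.06%). At 2-fold, 22 of the 93 were lower, against 6.52% of all genes, and 3 were higher, against 623 of all 15630 genes. The share of mitochondrial counts was higher in the same libraries, 9.76% in the double mutant, 4.46% in Tet2+/- and 3.43% in WT. Markers of neutrophil primary granules summed to 7281, 604 and 1508 CPM in those 3 libraries, against 7830 to 13580 CPM in the other 8. Erythroid markers summed to 3667, 12200 and 7267 CPM there, against 833 to 4147 CPM. Markers of maturing neutrophils did not move together in the 3 libraries. They summed to 63070 CPM in the double mutant, 3096 CPM in Tet2+/- and 2237 CPM in WT, against 16240 to 72850 CPM in the other 8. The part of any of these in the differences was not tested.

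**Figure D5:**
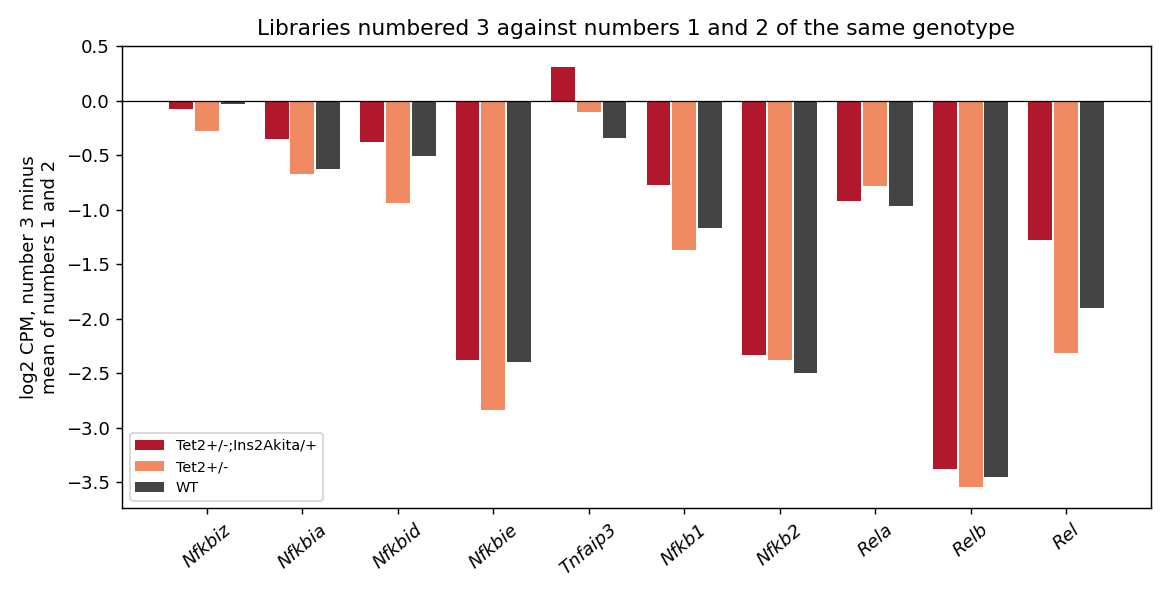
Log2 difference between the library numbered 3 and the mean of numbers 1 and 2, for the 10 genes in the double mutant, Tet2+/- and WT groups. Relb lies at -3.38 to -3.55, while Nfkbiz lies at -0.03 to -0.28 and Tnfaip3 at -0.34 to 0.31.

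Levels between genes were set side by side as RPKM (CPM divided by the kilobases of joined exons), averaged over the 11 libraries. Nfkbia had by far the highest, 426 RPKM, against 80.1 RPKM for Tnfaip3, 66.95 RPKM for Nfkbiz, 64.4 RPKM for Rela and 51.2 RPKM for Nfkbid. Rel was at 41.4, Nfkb2 at 38.0, Nfkbie at 24.3, Nfkb1 at 23.6 and Relb at 18.2 RPKM. The pooled SDs, 9.46 to 21.6 RPKM among Tnfaip3 to Nfkb2, exceed most of the steps between neighbours in that order. The steps between Nfkbia and Tnfaip3 and between Tnfaip3 and Nfkbiz were larger than the SDs of both genes, and no other step between neighbours was. These SDs are pooled within groups, and the step between Tnfaip3 and Nfkbiz was reversed in the double mutant, where Tnfaip3 was at 68.2 RPKM. In the double mutant Nfkbiz ranked 2 of the 10 genes at 113 RPKM, against 5 at 47.6 RPKM in Tet2+/-, 5 at 49.7 RPKM in Ins2Akita/+ and 4 at 52.1 RPKM in WT. Nfkb1 rests on its exon length, 12061 bases for all exons joined and 4149 for the longest transcript, and the second raises it to 68.7 RPKM.

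The 7 lists of pathway genes (IkB kinases, adaptors, other inhibitors, receptors, ligands, textbook targets and genes reported to need IkB-zeta, 95 genes of which 93 were tested) held no gene called by edgeR in any of the 6 comparisons. DESeq2 called 3 of them higher (Cxcl1, Nos2 and Tnf) and 2 lower (Tnfsf11 and Traf5) in the double mutant against WT, and 4 higher and 4 lower against Tet2+/-, where it called 2.61% and 3.44% of all genes. With the library number as a block, edgeR called 4 higher (Ikbke, Myd88, Nos2 and Tnf) and 3 lower (Cd83 and Traf5 among them) against WT, and 12 higher and 4 lower against Tet2+/-, where that fit called 1.63% and 4.5% of all genes. In the double mutant against WT, 9 of the 93 were higher and 4 lower at an unadjusted p under 0.05, against 8.79% of all genes. The median log2 difference was 0.17 over the 93 and -0.05 over all genes. By list, the medians were 0.45 for 23 textbook targets, 19 of them above 0, 0.60 for 13 receptors, 0.27 for 9 ligands and 0.18 for 16 other inhibitors, and -0.03 for the kinases and for the adaptors. The 6 tested genes reported to need IkB-zeta had a median of 2.01, with 4 of them above 0 and the others below. Of the 6, Lcn2, S100a8 and S100a9 are also among the 14 maturing neutrophil markers, whose median was 2.13.

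Tnf, the cytokine that is both a ligand and a target of the pathway, was at 91.4, 120 and 150 CPM in the double mutant, 48.8, 51.6 and 34.7 CPM in Tet2+/-, 52.3 and 38.2 CPM in Ins2Akita/+, and 50.4, 48.7 and 44.9 CPM in WT. All double mutant libraries were above all others, as for 5.04% of all genes tested. The log2 difference from WT was 1.33 (SE 0.24, adjusted p = 0.0880 by edgeR) and, without the libraries numbered 3, 1.10 (adjusted p = 0.0254). Myd88, the adaptor of Toll-like and interleukin-1 receptors, was at 149, 191 and 134 CPM in the double mutant, 95.3, 93.3 and 46.5 CPM in Tet2+/-, 95.7 and 80.2 CPM in Ins2Akita/+, and 86.5, 95.4 and 49.1 CPM in WT. Its double mutant libraries were also above all others. The log2 difference from WT was 1.04 (SE 0.33, adjusted p = 0.327 by edgeR).

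Among the adaptors, Traf5, a signalling partner of TNF receptor family members, was at 4.36, 3.38 and 4.37 CPM in the double mutant, 9.43, 7.95 and 8.60 CPM in Tet2+/-, 7.26 and 9.85 CPM in Ins2Akita/+, and 8.87, 8.56 and 9.68 CPM in WT. Its log2 difference between double mutant and WT was -1.16 (SE 0.25, adjusted p = 0.140 by edgeR). The B lineage marker sum was lower in the double mutant libraries too, and its part in this difference was not tested. Without the libraries numbered 3, 7 of 92 pathway genes were higher and 4 lower in the double mutant than in WT at an adjusted p under 0.05 by edgeR, against 3.44% of all genes in that fit. The 7 were Clec4e, Csf3, Lcn2, Myd88, Sod2, Tlr2 and Tnf, and the 4 included Cd83, Tnfsf11 and Traf5.

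The other pathway genes with the smallest p-values were given by their log2 differences between double mutant and WT, none of them called in the edgeR fit of all 11 libraries without the block. Among the kinases Ikbke was at 0.90 (SE 0.58), Map3k14, the kinase of the noncanonical arm, at -0.71 (SE 0.52), Chuk, a catalytic subunit of the IkB kinase, at -0.18 (SE 0.17) and Map3k8 at 0.45 (SE 0.64). The kinase Irak4, which acts below Myd88, was at 0.71 (SE 0.24). Among other modulators Rnf11 was at 0.54 (SE 0.30), Nkrf at -0.55 (SE 0.34), Commd1 at 0.34 (SE 0.22) and N4bp1 at 0.87 (SE 0.62).
Among receptors Tnfrsf13c, the BAFF receptor of B cells, was at -0.97 (SE 0.46), Il1r1 at 0.60 (SE 0.37), Tlr2 at 1.31 (SE 0.86) and Ltbr at 0.78 (SE 0.56). Among ligands Tnfsf11, which encodes RANKL, was at -1.93 (SE 0.53), Il1b at 0.87 (SE 0.41) and Lta at -0.63 (SE 0.47). Of the genes reported to need IkB-zeta, Lcn2 was at 2.23 (SE 0.90), S100a8 at 2.03 (SE 0.93), Csf3 at 2.19 (SE 0.65) and Csf2 at -2.55 (SE 0.95), the last 2 from levels of at most 2.80 CPM in any library.

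A few targets were high in 1 library. The chemokine gene Cxcl2 was at 23.8, 42.3 and 340 CPM in the double mutant, 25.1, 28.6 and 62.6 CPM in Tet2+/-, 15.1 and 16.9 CPM in Ins2Akita/+, and 17.4, 16.3 and 48.3 CPM in WT. Nos2, the inducible nitric oxide synthase, was at 0.60, 2.74 and 20.7 CPM in the double mutant and at most 0.181 CPM in the other 8 libraries. Both were highest in the double mutant library numbered 3, the one with 9.76% mitochondrial counts, whose part in these values was not tested. The related chemokine gene Cxcl1 was at 0.25, 0.45 and 4.63 CPM in the double mutant, 0.19, 0.71 and 0.48 CPM in Tet2+/-, and about 0.10 CPM or less in the 5 Ins2Akita/+ and WT libraries.

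The search for like profiles covered 10093 genes with a mean of at least 5 CPM. It left out genes without a name and those named only by Gm and digits or as Rik clones. The genes whose profile over the 11 libraries was most like that of Nfkbiz were Jak3, Klhl2, Neat1, Flot1 and Rinl. Their log2 profiles differed from that of Nfkbiz by a root mean square of 0.16 to 0.19. Jak3, for example, averaged 121 CPM in the double mutant, 55.1 CPM in Tet2+/-, 61.8 CPM in Ins2Akita/+ and 55.4 CPM in WT. For Nfkbia they were Smim7, Tuba4a, Atg3, Mfsd1 and Hmox2, at 0.09 to 0.10, and for Nfkb1 they were Uvrag, Pptc7, Dgkd, Erbin and Slc38a1, at 0.05 to 0.11. Among the 10 members, the closest pairs were Nfkbia with Nfkbid (0.17), Nfkb1 with Rela (0.21) and Nfkb2 with Nfkbie (0.23), and the farthest was Relb with Nfkbiz (1.65).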

How the data were processed

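RNA from lineage-negative bone marrow was sequenced in 12 labelled samples, of which 11 matched a column of the deposited table. 1 further column, whose name is like that of an Ins2Akita/+ library numbered 3 but matches no label, was not used, and sample 4 of the double mutant was not analysed here. The deposited values are whole-number read counts per gene. Per the submitters' processing notes, bcl2fastq, Trimmomatic 0.32, TopHat2 2.1.1 and GRCm38 were used. The counting program and its strand setting were not stated in the labels (not given in the sources used here).

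Counts were tested in R 4.3.3 with edgeR 4.0.16 (filterByExpr, TMM, quasi-likelihood test, 1 fit of the 4 groups, Benjamini-Hochberg over 15630 genes, adjusted p under 0.05). The SE given with an edgeR log2 difference is its size divided by the square root of the F statistic of the test. Alternatives were DESeq2 1.42.0, other scaling factors, no filter, the library number as a block, leaving out number 3, and leaving out each library. The labels do not say whether each sample is its own animal. If not, the p-values reflect only spread among samples, which may be technical. Gene names come from GENCODE. All 10 members are named. From each pathway list the 4 genes with the smallest p in the double mutant against WT are named, and any gene called, apart from a gene that is not reported here. Pathway genes named only for calls of an alternative, or for low values at number 3, were chosen after their values were seen. The members and lists were chosen with earlier results of these data known.

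The label numbers were checked for pairing by the deviations of same-numbered libraries from their group means. These correlated at 0.340 to 0.589 (double mutant and WT), 0.318 to 0.533 (double mutant and Tet2+/-) and 0.485 to 0.791 (Tet2+/- and WT), all over 0.1. The main fit did not use this pairing, and the fit with the library number as a block is given beside it as an alternative. Libraries numbered 1 and 2 correlated as highly across numbers in some pairs (0.372 for double mutant 1 with WT 2, 0.691 for Tet2+/- 1 with WT 2, 0.462 for double mutant 2 with Tet2+/- 1), so the values set number 3 apart and do not separate 1 and 2. The 2 Ins2Akita/+ libraries correlated with the same numbers at 0.0661 and -0.351 (WT), 0.264 and -0.232 (Tet2+/-), and -0.0189 and -0.321 (double mutant). The deviations of 2 libraries from their mean mirror each other, and neither is numbered 3. The check thus could not show whether this group follows the numbers.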

Additional observations from a re-analysis of the deposited data

How the results depend on the processing

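Of the members' log2 differences under the alternatives, 972 kept their side of the threshold, 8 passed it and 10 dropped below it. All 18 belong to Nfkbiz, and none reversed a called direction. Members called in the double mutant against WT were 1 by DESeq2, with the replicate block, without number 3, with the block without Ins2Akita/+, which was added after seeing the data, and 0 to 1 leaving out each library. Against Tet2+/- they were 0 to 1 leaving out each library, against Ins2Akita/+ 1 by DESeq2 and without number 3, and in the interaction 1 by DESeq2. Apart from Nfkbiz, the block changed no call of a member. Over all genes the double mutant against WT gave 7 calls, and 52 without the filter, 408 by DESeq2, 255 with the block, 519 without number 3, 62 with the block without Ins2Akita/+ and 1 to 49 leaving out each library. Tet2+/- against WT gave 4, and 45, 8, 22 and 7 by DESeq2, with the block, without number 3 and with the block without Ins2Akita/+, and 1 to 7 leaving out each library. The double mutant against Tet2+/- gave 41, and 86 without the filter, 538 by DESeq2, 703 with the block, 1163 without number 3, 418 with the block without Ins2Akita/+ and 0 to 66 leaving out each library. Against Ins2Akita/+ it gave 6, and 20, 189, 18 and 436 without the filter, by DESeq2, with the block and without number 3, and 0 to 11 leaving out each library. The interaction gave 0, and 3, 60, 3 and 7 in that order. With the longest transcript as length, Nfkb1 was at 68.7, Nfkbiz at 81.6 and Tnfaip3 at 93.4 RPKM. Apart from the smaller number of libraries or genes in some settings, the cause was not tested. Group sizes of 2 and 3 limit the precision.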
